A study of Mus musculus with 6 samples.

Results

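Angiotensin, endothelin and natriuretic peptide genes encode vasoactive peptides, the enzymes that release them and the receptors that read them. The group was fixed by name as 10 mouse genes (Agt, Ace, Agtr1a, Agtr2, Edn1, Ece1, Ednra, Ednrb, Npr1 and Npr3), and every probe set annotated to a single gene of that name was taken. This gave 16 probe sets for 9 of the 10 genes, out of 34958 probe sets for 18194 genes in all; Ednra, the endothelin receptor of smooth muscle, had no such probe set and was not analysed here. Carotid arteries of mice with a global knockout of IRF4 (IRF4 KO) and of wild-type mice (WT) were injured with a wire and taken 14 days later. Each genotype had 3 Affymetrix arrays, and each array was hybridised with RNA pooled from 3 to 5 vessels. The labels give neither the strain nor the age or sex of the mice, nor which part of Irf4 is missing, and uninjured arteries were not analysed here. Irf4 itself read 3.57 ± 0.26 in IRF4 KO and 3.64 ± 0.26 in WT (log2 intensity, SD, n = 3 each) on the brighter of its probe sets, so it did not check the genotype labels.

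Angiotensinogen, the product of Agt, is cut by renin and then by the angiotensin-converting enzyme (Ace) into angiotensin II, which acts on the type 1 receptor (Agtr1a, with its close relative Agtr1b in rodents) to contract and enlarge smooth muscle and on the type 2 receptor (Agtr2), which often opposes it. Endothelin-1 (Edn1) is released from its precursor by endothelin-converting enzymes such as Ece1, and its B receptor (Ednrb) sits on endothelium, where it releases dilators and clears the peptide, and also on some smooth muscle. The natriuretic peptides relax the wall through Npr1, a receptor that makes cyclic GMP, and are removed from the circulation by the clearance receptor Npr3. Wire injury strips the endothelium, the main source of endothelin-1, and angiotensin II is a growth signal for the smooth muscle that builds the neointima.

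Because IRF4 is a DNA-binding factor, the promoters of the members were read for the cores of its known elements. RefSeq windows of 250 bases before to 50 bases after a gene start (GRCm38.p6) were listed for 9 of the 10 genes, in 13 windows; Agtr1a had none. The letters GAAA, any 2 bases and GAAA again, the core of the interferon-stimulated response element, were found on either strand in 2 of the 13 windows, against 3.44% of all 32851 windows. GGAA, any 2 bases and GAAA, the core of the element that IRF4 shares with ETS factors, was found in 1 of the 13, against 2.72% of all windows, and TGANTCA, an AP-1 core, in 0 of the 13, against 7.81%. A window can hold both of the first motifs, and their matches can overlap. The 3 windows with a match are printed with the matched letters in capitals, because they show where such a core lies in a gene whose level is given further on.
Edn1 promoter, chr13:42301226-42301525, strand +: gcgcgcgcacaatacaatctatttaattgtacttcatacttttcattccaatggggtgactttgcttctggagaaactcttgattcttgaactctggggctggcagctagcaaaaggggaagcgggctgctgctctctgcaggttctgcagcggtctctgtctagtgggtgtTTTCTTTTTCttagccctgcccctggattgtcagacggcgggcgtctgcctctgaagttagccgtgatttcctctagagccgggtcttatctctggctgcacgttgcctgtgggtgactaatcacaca
Ece1 promoter, chr4:137920543-137920842, strand +: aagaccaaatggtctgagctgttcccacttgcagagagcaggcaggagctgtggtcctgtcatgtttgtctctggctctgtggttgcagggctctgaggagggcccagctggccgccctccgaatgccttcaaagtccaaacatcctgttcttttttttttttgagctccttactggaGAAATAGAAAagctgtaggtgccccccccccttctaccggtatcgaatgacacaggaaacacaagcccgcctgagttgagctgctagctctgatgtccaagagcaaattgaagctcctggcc
Agtr2 promoter, chrX:21484374-21484673, strand +: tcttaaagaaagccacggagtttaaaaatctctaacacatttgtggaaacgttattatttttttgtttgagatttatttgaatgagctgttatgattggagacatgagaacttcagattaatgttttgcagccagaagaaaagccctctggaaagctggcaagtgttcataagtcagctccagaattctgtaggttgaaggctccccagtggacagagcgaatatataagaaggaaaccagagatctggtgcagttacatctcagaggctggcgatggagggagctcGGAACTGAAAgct
In Edn1 the match began 78 bases before the gene start and was read on the opposite strand. In Ece1 it began 72 bases before the most downstream of 4 listed starts, and in Agtr2 it began 37 bases after the start. These are matches of letters, and binding of IRF4 to them was not measured here.

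No member passed the test for a difference between the genotypes. With limma over 18194 genes, 0 of the 9 measured members had an adjusted p under 0.05, and the share of all genes that passed was 0%. The type 1 angiotensin receptor gene Agtr1a came closest, with a mean lower by 0.73 log2 units in IRF4 KO, and it was the 1 member with an unadjusted p under 0.05, a level that 271 of all genes reached (1.49%). Of the 9 members, 6 had a lower and 3 a higher mean in IRF4 KO; the mean was lower in IRF4 KO for 50.2% of all genes. The median change of the members was -0.073, with a range of -0.73 to 0.16, and the median over all genes was -0.0015. The 95% interval of the change lay within 1 log2 unit of 0 on either side for 7 of the 9 members, and reached beyond it for Agtr1a and Npr1. Fewer cells of a type and less RNA per cell cannot be told apart in such whole-vessel samples.

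**Figure D1:**
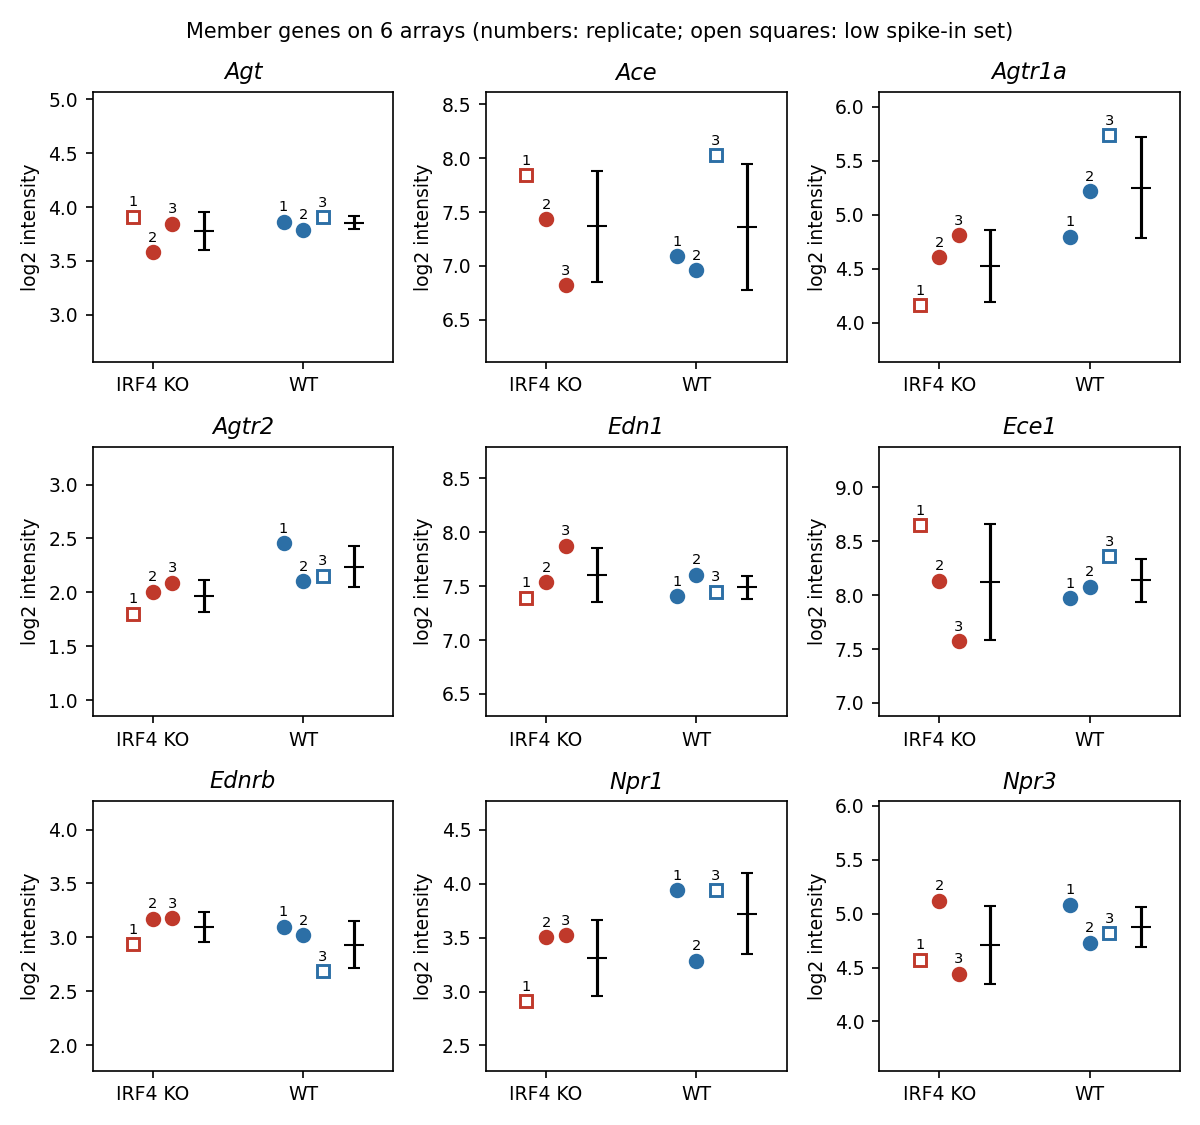
Log2 intensity (y axis, each panel spans the same number of log2 units) of the 9 measured members in IRF4 KO (left, red) and WT (right, blue); points are arrays with their replicate number, black bars are means ± SD of 3 arrays, and open squares are the arrays with low spike-in controls, IRF4 KO 1 and WT 3. The genotypes overlap in 8 of the 9 genes, and Agtr1a has the lowest value in IRF4 KO 1 and the highest in WT 3.

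Arrays IRF4 KO 1 and WT 3 differed from the remaining 4 in their spike-in controls and in some marker lists. Of the 9 members, 4 did not overlap between these 2 sets of arrays, as was so for 37.2% of all genes. A link between the controls or markers and the members was not tested. The poly-A controls, bacterial RNAs spiked in ahead of the labelling step, averaged 5.14 in IRF4 KO 1 and 4.93 in WT 3, against 7.35 to 8.37 in the other IRF4 KO arrays and 8.46 to 9.26 in the other WT arrays. A list of 12 macrophage markers averaged 2.35 above the mean of all arrays in IRF4 KO 1 and 1.43 above it in WT 3, and lay between -1.32 and -0.42 on the other 4. A list of 12 cartilage markers was at 2.40 in IRF4 KO 1 and 2.19 in WT 3, and between -1.33 and -0.97 on the others. Adventitial fibroblast markers were at 0.88 in IRF4 KO 1 and 0.53 in WT 3, and between -0.45 and -0.29 on the others. The endothelial list was at 0.53 in IRF4 KO 1 and 0.31 in WT 3, and between -0.51 and -0.063 on the others. The smooth muscle markers were bright in each genotype, with list means of 9.65 to 10.3 in IRF4 KO and 9.70 to 10.1 in WT. Of these 12 markers, 4 had a higher and 8 a lower mean in IRF4 KO, with a median change of -0.042. Acta2, Smtn and Tagln were higher by 1.14, 1.09 and 1.08. They were the 3 of 12 without overlap, all higher in IRF4 KO, against 2.37% of all genes. None of the 12 passed over all genes (smallest limma adjusted p = 0.252). Endothelial markers averaged 6.39 to 7.11 in IRF4 KO and 6.08 to 6.90 in WT, with 10 of 12 genes higher on average in IRF4 KO. Cldn5, with the largest change of that list, was lower (-0.78), and the mean was lower for 50.2% of all genes. Each set of arrays held both genotypes, so differences are also given within the pair IRF4 KO 1 and WT 3 and within the other 4 arrays.

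In the angiotensin axis the means of the peptide precursor and of its converting enzyme lay close together in the genotypes. Agt read 3.91, 3.58 and 3.85 in IRF4 KO replicates 1 to 3, against 3.86, 3.79 and 3.91 in WT replicates 1 to 3. The genotypes overlapped, and the change was -0.073 (95% interval -0.49 to 0.35, limma adjusted p = 0.999). This probe set was below 4.89, the median of all gene means, as were the gene-level probe sets of Agtr2, Ednrb, Npr1 and Npr3. Agtr1a lay at that median. RMA can compress changes at low levels, which was not measured here.

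Ace, the enzyme that makes angiotensin II and breaks down bradykinin, read 7.84, 7.44 and 6.82 in IRF4 KO replicates 1 to 3, against 7.09, 6.96 and 8.03 in WT replicates 1 to 3. The high arrays were IRF4 KO 1 and WT 3, the same that had low spike-in controls. The change was 0.0081 (95% interval -0.80 to 0.82, limma adjusted p = 0.999). The means of the 2 sets of arrays were 7.93 for IRF4 KO 1 with WT 3 and 7.08 for the other 4. The other Ace probe set did not follow this split: it read 6.20, 5.94 and 6.35 in IRF4 KO replicates 1 to 3, against 6.66, 5.86 and 6.23 in WT replicates 1 to 3. Its set means were 6.22 for IRF4 KO 1 with WT 3 and 6.20 for the other 4, and its change was -0.086. The part of the macrophage, cartilage, adventitial fibroblast and endothelial markers, all highest on the same arrays, in the Ace values was not tested.

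Agtr1a read 4.16, 4.61 and 4.81 in IRF4 KO replicates 1 to 3, against 4.80, 5.22 and 5.74 in WT replicates 1 to 3. The highest IRF4 KO array reached just above the lowest WT array, so the genotypes overlapped by a narrow margin. The mean was 4.52 ± 0.33 in IRF4 KO and 5.25 ± 0.47 in WT (SD, n = 3 each), a change of -0.73 (SE 0.29) or 0.605-fold. With limma the 95% interval was -1.38 to -0.071, the unadjusted p was 0.0338, rank 140 of 18194 genes, and the adjusted p was 0.999. The difference was -1.58 between IRF4 KO 1 and WT 3, and -0.30 among the other 4 arrays. Without those 2 arrays the limma adjusted p was 0.999. Without WT 3 alone the change was -0.48. Agtr1a lies within 5 Mb of Irf4 on the same mouse chromosome, so DNA that travels with the knockout allele cannot be told apart here from the loss of IRF4. Edn1 lies on that chromosome too, within 20 Mb of Irf4, and the same holds for it.

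The genes with the pattern most like Agtr1a over the 6 arrays, among genes above the median level, were Sfxn4 (Pearson r = 0.973), Slc25a14 (0.972) and Abca5 (0.959). These values describe 6 arrays, each of its own pooled RNA and all on a common scale, and were picked for being the highest. Sfxn4, a mitochondrial carrier of the sideroflexin family, read 5.18 ± 0.18 in IRF4 KO and 5.49 ± 0.18 in WT. Slc25a14, another mitochondrial carrier, read 5.47 ± 0.05 in IRF4 KO and 5.65 ± 0.12 in WT. Abca5, a lipid transporter, read 6.50 ± 0.25 in IRF4 KO and 6.92 ± 0.41 in WT (SD, n = 3 each).

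The other angiotensin receptor gene, Agtr2, read 1.80, 2.01 and 2.09 in IRF4 KO replicates 1 to 3, against 2.46, 2.10 and 2.16 in WT replicates 1 to 3. It was the 1 member of 9 whose genotypes did not overlap, as was so for 5.68% of all genes, and the gap between the highest IRF4 KO and the lowest WT array was in the second decimal. All 6 values were near the lowest of the arrays, which began at 1.34 to 1.45. The change was -0.27 (95% interval -0.71 to 0.17, limma adjusted p = 0.999). It was -0.35 between IRF4 KO 1 and WT 3 and -0.23 among the other 4 arrays.

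**Figure D2:**
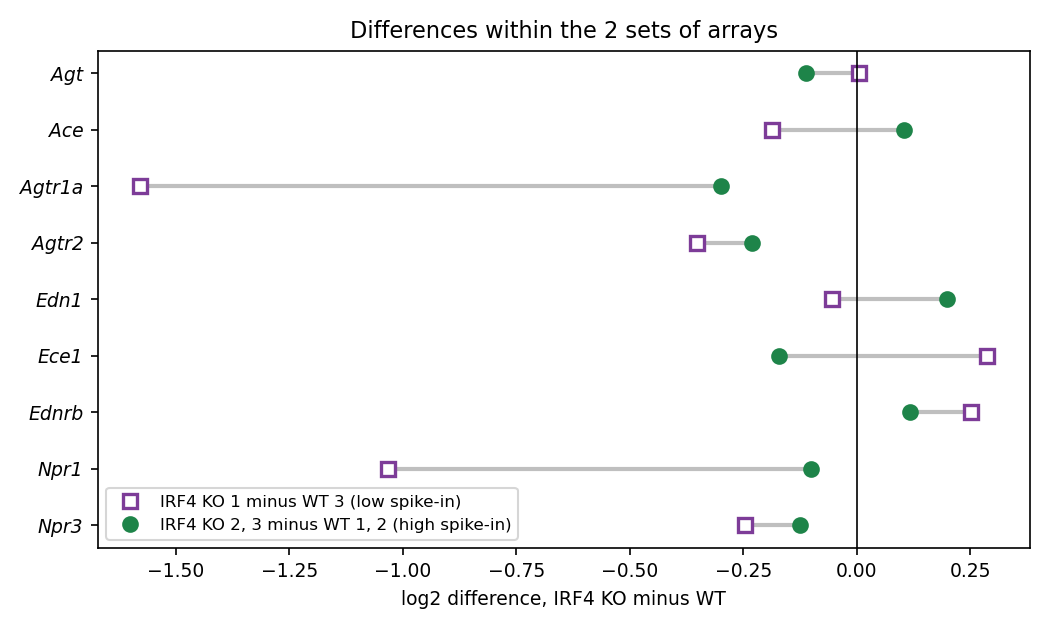
Log2 difference (x axis, IRF4 KO minus WT) of each member within the pair of arrays with low spike-in controls (open squares, 1 array per genotype) and within the 4 arrays with high controls (green points, means of 2 arrays per genotype). Agtr1a and Npr1 differ by -1.58 and -1.03 in the pair and by -0.30 and -0.10 among the other 4, and Agt, Ace, Edn1 and Ece1 have opposite signs in the sets.

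In the endothelin axis, Edn1 read 7.39, 7.53 and 7.88 in IRF4 KO replicates 1 to 3, against 7.41, 7.61 and 7.45 in WT replicates 1 to 3. Its WT arrays lay within the range of the IRF4 KO arrays. The mean was 7.60 ± 0.25 in IRF4 KO and 7.49 ± 0.11 in WT (SD, n = 3 each), a change of 0.11 (95% interval -0.34 to 0.57, limma adjusted p = 0.999). Edn1 varied least among the 4 members above the median of gene means, with a range of 0.48 log2 units over the 6 arrays.

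Ece1, which cuts big endothelin to the active peptide, read 8.65, 8.13 and 7.57 in IRF4 KO replicates 1 to 3 on its brightest probe set, against 7.97, 8.08 and 8.36 in WT replicates 1 to 3. The IRF4 KO arrays spanned the WT arrays on either side. The change was -0.019 (95% interval -0.67 to 0.64, limma adjusted p = 0.999). A further Ece1 probe set read 5.02, 4.79 and 4.30 in IRF4 KO replicates 1 to 3, against 5.31, 5.39 and 4.68 in WT replicates 1 to 3. Its change was -0.42 in a limma fit over all 34958 probe sets (adjusted p = 0.9996), with 0.35 between IRF4 KO 1 and WT 3 and -0.81 among the other 4. The third read 4.70, 4.30 and 4.22 in IRF4 KO replicates 1 to 3, against 4.10, 4.0 and 4.89 in WT replicates 1 to 3, a change of 0.075. On the brightest and the third probe set, IRF4 KO 1 and WT 3 were above the other 4 arrays, with set means of 8.50 against 7.94 and of 4.79 against 4.15. Over the 6 arrays, the brightest Ece1 probe set varied with that of Ace (Pearson r = 0.86) and against Edn1 (r = -0.81). These were the highest and the lowest r of all pairs of members, and Agtr2 with Npr1 reached 0.84. The values only describe the arrays. Ece1 and Ace were both higher on IRF4 KO 1 and WT 3, whereas Edn1 overlapped between the sets.

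Ednrb, the endothelin B receptor, was dim on all 3 of its probe sets. The brightest read 2.94, 3.17 and 3.18 in IRF4 KO replicates 1 to 3, against 3.10, 3.02 and 2.68 in WT replicates 1 to 3. Its change was 0.16 (95% interval -0.29 to 0.61, limma adjusted p = 0.999), and the other probe sets gave -0.12 and -0.042. Leaving out 1 array at a time gave changes of 0.037 (without WT 3) to 0.24 (without WT 1). On this probe set IRF4 KO 1 and WT 3 were the lowest arrays of their genotype, with a set mean of 2.81 against 3.12 for the other 4.

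Among the natriuretic peptide receptors, Npr1 read 2.91, 3.50 and 3.52 in IRF4 KO replicates 1 to 3, against 3.94, 3.29 and 3.94 in WT replicates 1 to 3. The genotypes overlapped through WT 2, which was below IRF4 KO 2 and IRF4 KO 3. The mean was 3.31 ± 0.35 in IRF4 KO and 3.72 ± 0.38 in WT (SD, n = 3 each), a change of -0.41 (SE 0.27, 95% interval -1.02 to 0.20, limma adjusted p = 0.999). The difference was -1.03 between IRF4 KO 1 and WT 3 and -0.10 among the other 4 arrays. Without IRF4 KO 1 the change was -0.21.

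Npr3 read 4.57, 5.12 and 4.44 in IRF4 KO replicates 1 to 3, against 5.08, 4.73 and 4.82 in WT replicates 1 to 3. IRF4 KO 2 was the highest array and IRF4 KO 3 the lowest, and the change was -0.17 (95% interval -0.70 to 0.37, limma adjusted p = 0.999). The other Npr3 probe sets, both dimmer, gave 0.057 and -0.0059. For the brightest, leaving out 1 array at a time gave changes of -0.37 (without IRF4 KO 2) to -0.031 (without IRF4 KO 3).

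**Figure D3:**
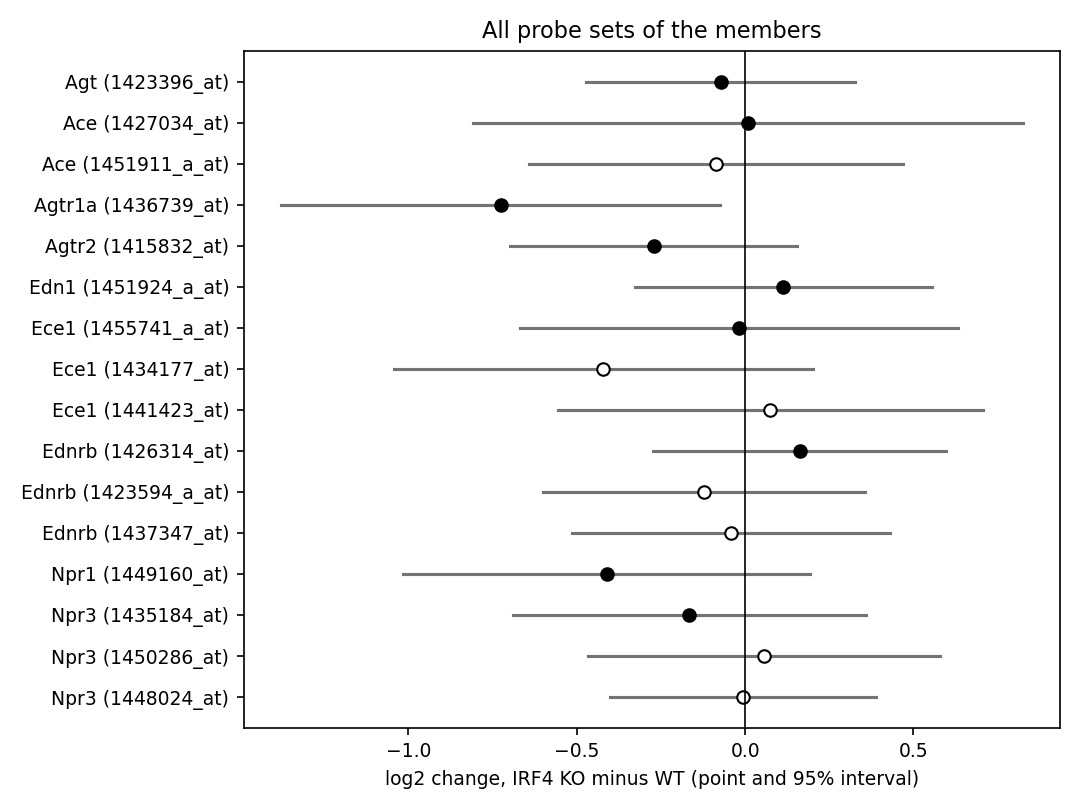
Log2 change (x axis, IRF4 KO minus WT) of all 16 probe sets of the members, with 95% intervals from the limma fit over 34958 probe sets; filled points are the probe sets used for the gene and open points the other 7. The interval of 15 probe sets includes 0, and that of Agtr1a runs from -1.38 to -0.073.

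Over all 16 probe sets, 11 had a lower and 5 a higher mean in IRF4 KO, where the mean was lower for 48.8% of all probe sets, with a median change of -0.058, against 0.0058 over all 34958 probe sets. None passed an adjusted p under 0.05 with limma, as for 0% of all probe sets, and 1 had an unadjusted p under 0.05, against 1.83% of all probe sets. The genotypes did not overlap in 1 of the 16, that of Agtr2, against 6.24% of all probe sets. The probe sets of a gene did not track each other closely over the 6 arrays: Pearson's r was -0.098 for the pair of Ace, -0.37 to 0.69 for the pairs of Ece1, 0.44 to 0.69 for those of Ednrb and -0.50 to 0.54 for those of Npr3. Between IRF4 KO 1 with WT 3 and the other 4 arrays, 4 of the 9 members (Agt, Ace, Ece1 and Ednrb) did not overlap, as was so for 37.2% of all genes.

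Other genes of these pathways were read from lists of related genes. In the renin-angiotensin list, 9 of 17 measured genes had a higher and 8 a lower mean in IRF4 KO, 0 passed the limma threshold, and the median change was 0.0095. Prep, an oligopeptidase that can trim angiotensins, read 6.26, 5.72 and 5.48 in IRF4 KO replicates 1 to 3, against 4.84, 5.11 and 5.53 in WT replicates 1 to 3. The genotypes overlapped between IRF4 KO 3 and WT 3, and the change of 0.65 had an unadjusted p of 0.0409 and an adjusted p of 0.999 with limma. Agtr1b, named for its kinship to Agtr1a, read 3.14 ± 0.48 in IRF4 KO and 3.30 ± 0.37 in WT, a change of -0.16; whether the probes of these close relatives share transcripts was not tested. Atp6ap2, the prorenin receptor, was the 1 gene of 17 without overlap, against 5.68% of all genes, at 9.20 ± 0.04 in IRF4 KO and 9.55 ± 0.18 in WT, and was named after its values were seen.

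In the endothelin list, 6 of 9 genes had a higher and 3 a lower mean in IRF4 KO, and 0 passed. In 2 of the 9, Kel and Edn2, all IRF4 KO arrays were above all WT arrays, as for 2.37% of all genes. Kel, a blood group protein that can process big endothelin-3, read 3.12 ± 0.15 in IRF4 KO and 2.87 ± 0.04 in WT without overlap, at a dim level. Edn2, an endothelin peptide gene picked with its values known, read 2.31 ± 0.15 in IRF4 KO and 2.14 ± 0.02 in WT, dimmer still. Edn3, the peptide that Ednrb reads in the development of pigment cells and gut nerves, read 4.90, 5.48 and 6.09 in IRF4 KO replicates 1 to 3, against 5.51, 4.83 and 4.87 in WT replicates 1 to 3. The genotypes overlapped, and the change was 0.42 (95% interval -0.34 to 1.18, limma adjusted p = 0.999).

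In the natriuretic peptide and cyclic GMP list, 13 of 19 genes had a lower and 6 a higher mean in IRF4 KO, 0 passed, and the median change was -0.053. Pde1c, a phosphodiesterase that breaks down cyclic nucleotides in dividing smooth muscle, read 4.41, 5.47 and 4.79 in IRF4 KO replicates 1 to 3, against 5.41, 5.90 and 5.55 in WT replicates 1 to 3. It overlapped through IRF4 KO 2, and its change of -0.73 had an unadjusted p of 0.0366 and an adjusted p of 0.999 with limma. Prkg1, the cyclic GMP-dependent kinase of smooth muscle, read 7.82 ± 0.18 in IRF4 KO and 8.15 ± 0.12 in WT, the 1 gene of 19 without overlap, against 5.68% of all genes, and was named after its values were seen. The peptide genes, named for their role, were dim: Nppa changed by -0.034, Nppb by 0.21 and Nppc by -0.053. Npr2, the receptor of C-type natriuretic peptide, read 7.82 ± 0.34 in IRF4 KO and 7.74 ± 0.66 in WT.

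Among the G protein and RGS genes that carry the receptors' signal, 14 of 21 had a lower and 7 a higher mean in IRF4 KO, and 0 passed. Gna12, an alpha subunit of a heterotrimeric G protein, read 7.57, 7.11 and 6.85 in IRF4 KO replicates 1 to 3, against 6.06, 6.73 and 7.08 in WT replicates 1 to 3, a change of 0.55 with overlap. Rhoa, the GTPase that sensitises the contractile machinery to calcium, changed by 0.30 (95% interval -0.16 to 0.76). Of 12 genes that angiotensin or endothelin can induce, 4 had a higher and 8 a lower mean in IRF4 KO, and none passed the threshold. In 3 of the 12 (Tgfb1, Myc and Atf3) all IRF4 KO arrays were below all WT arrays, as for 3.31% of all genes. Tgfb1, a growth factor gene, read 3.88, 4.0 and 3.98 in IRF4 KO replicates 1 to 3, against 5.11, 5.01 and 5.13 in WT replicates 1 to 3 (change -1.13, limma adjusted p = 0.252). Myc, a growth regulator, read 5.11 ± 0.31 in IRF4 KO and 5.65 ± 0.19 in WT, a change of -0.55 without overlap (unadjusted p = 0.0379, limma adjusted p = 0.999). Atf3, a stress-induced transcription factor gene picked with its values known, read 8.53 ± 0.31 in IRF4 KO and 8.96 ± 0.07 in WT.

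**Figure D4:**
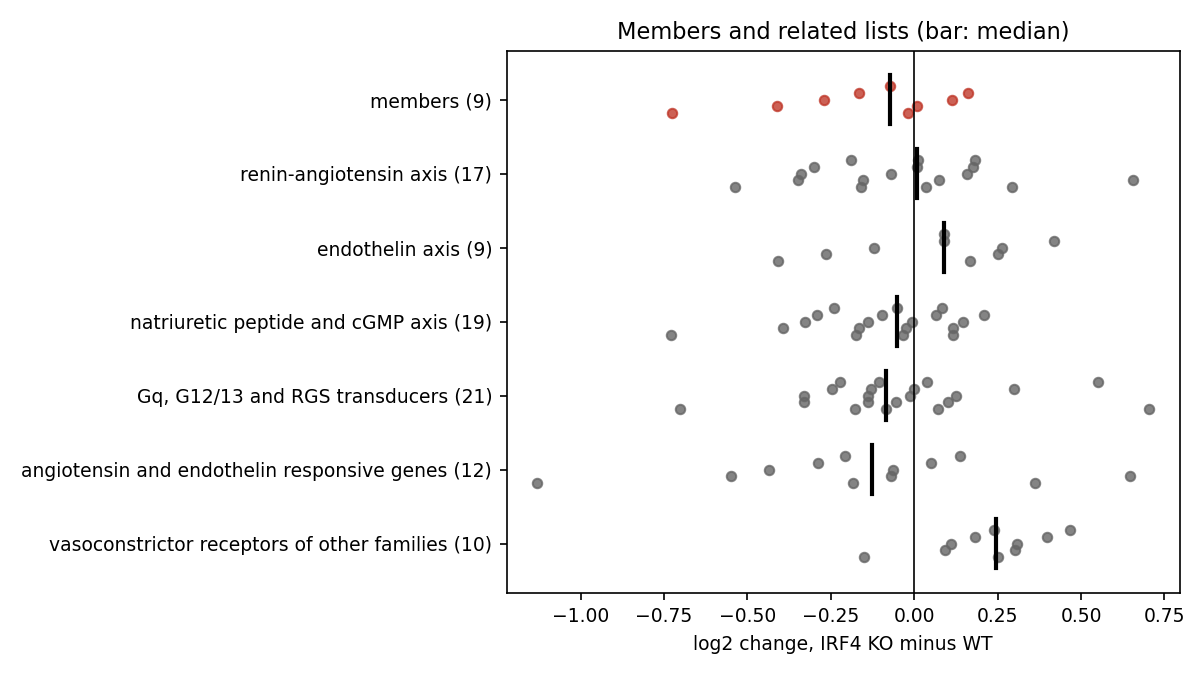
Log2 change (x axis, IRF4 KO minus WT) of each measured gene in the members (red) and in 6 lists of related genes (grey), with the number of genes in brackets and the median as a black bar. The medians of the members and of the first 5 lists lie between -0.13 and 0.090, that of the other vasoconstrictor receptors at 0.24, and none of the genes passed the limma threshold.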

How the data were processed

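The authors deposited 1 log2 intensity per probe set and array, made with Affymetrix Expression Console and RMA per the submitters' processing notes (background correction, normalization between arrays, summary of a set's probes); which versions and settings they chose is not given in the sources used here. The table held 45101 probe sets on 6 arrays, with array medians of 3.94 to 4.12. Names came from the annotation of the platform: 34958 had 1 symbol, 932 several and 9211 none. Each of 18194 genes took its probe set with the highest mean. IRF4 KO was compared with WT, 3 arrays each, with limma 3.58.1 in R 4.3.3 (lmFit, eBayes, two-sided, no covariate), with Benjamini-Hochberg adjustment over all genes and a threshold of 0.05. The same fit was run on all 34958 probe sets. Intervals are 95% moderated intervals, not adjusted for the number of genes, and the number of arrays limits their precision.

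The members and lists were chosen with earlier results of these data known. Of 188 list genes, 170 had a probe set of 1 gene. From each list the text names genes with an unadjusted p under 0.05, otherwise up to 2 with the smallest p, and for the member with the smallest p and the widest spread (Agtr1a in each case) the 3 genes with the highest Pearson correlation; others are said to be chosen by role or after their values were seen. Alternatives tried were quantile normalization, subtraction of array medians, a robust trend with intensity, averaging a gene's probe sets, leaving out dim genes, array weights, a replicate block, a block for or omission of the 2 arrays with low spike-in controls (24 poly-A probe sets), leaving out each array, and a threshold of 0.10.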

Additional observations from a re-analysis of the deposited data

How the results depend on the processing

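Under the 16 alternatives, 0 of the 9 members were called, and leaving out each array in turn gave 0 to 0 called members, 0 to 0 called genes and 0 to 4 called probe sets (4 without IRF4 KO 1). With array weights, 68 genes and 64 probe sets were called, in a weight estimate that stopped before it converged, and without the arrays with low spike-in controls 5 genes and 6 probe sets. The lowest adjusted p of a member was 0.070, for Agtr1a with array weights. Agtr1a and Agtr2 had a lower mean in IRF4 KO under every alternative that gave a value, from -0.95 to -0.30 and from -0.34 to -0.14. Other members changed sign. With array weights Edn1 was at -0.029, Ece1 at 0.029, Npr1 at 0.056 and Npr3 at 0.33. With probe sets averaged per gene Ace was at -0.039 and Ednrb at -7.0e-04, with array medians subtracted Ace was at -0.027, and with quantile normalization Ece1 was at 0.059. Leaving out each array gave Agt -0.14 to 0.027, Ace -0.23 to 0.34, Edn1 -0.024 to 0.22 and Ece1 -0.28 to 0.25. The causes were not tested. With the replicate number as a block, 0 genes were called and Agtr1a had a limma adjusted p of 1. The deviations of same-numbered arrays correlated at -0.52, 0.37 and -0.62, and 1 of 3 numbers correlated best with itself. Those of IRF4 KO 1 and WT 3, the arrays with low spike-in controls, correlated at 0.68. Whether the numbers pair the arrays cannot be told from these values, which also carry that split of the arrays. The means of Agtr2, Ednrb, Npr1, Agt and Npr3 lie below the median of all gene means, where RMA can compress changes. How far it did so here was not measured. With 3 arrays a genotype, small changes were not detectable in these or in the brighter members.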

Other observations

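Receptors of other vasoconstrictors, read beside the angiotensin and endothelin receptors, mostly had higher means in IRF4 KO. Of 10 measured genes, 9 were higher and 1 lower, with a median change of 0.24, against -0.0015 over all genes, and 0 passed the limma threshold over all genes. The median level of these receptor genes was 4.34, below the median of all gene means (4.89). The endothelial markers differed by a like amount, with 10 of 12 higher and a median of 0.23. The mean was lower in IRF4 KO for 50.2% of all genes. The 2 lower markers were Cldn5, with the largest change of the list (-0.78), and Erg (-0.17). List means were 6.39 to 7.11 in IRF4 KO and 6.08 to 6.90 in WT, highest on IRF4 KO 1 and WT 3. The part of the endothelial markers in the receptor values was not tested. Adra1b, an alpha-1 adrenergic receptor, read 3.09, 3.30 and 3.50 in IRF4 KO replicates 1 to 3, against 2.86, 2.79 and 2.83 in WT replicates 1 to 3, a change of 0.47 without overlap and at a dim level (unadjusted p = 0.0361, limma adjusted p = 0.999). Its genotypes, with those of P2ry2, a nucleotide receptor, and S1pr2, a sphingosine-1-phosphate receptor, made 3 of 10 without overlap, all higher in IRF4 KO, against 2.37% of all genes; P2ry2 and S1pr2 were named after their values were seen. P2ry2, also below that median of gene means, read 4.36 ± 0.25 in IRF4 KO and 3.97 ± 0.06 in WT. S1pr2 read 6.12 ± 0.05 in IRF4 KO and 5.94 ± 0.09 in WT. F2r, the thrombin receptor and the 1 gene with a lower mean, read 10.4 ± 0.39 in IRF4 KO and 10.6 ± 0.36 in WT.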
